A study of Mus musculus with 24 samples.

Results

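The microRNAs of the mouse cornea were compared with those of the other ocular tissues on 18 one-color arrays. The cornea accounted for 3 of the 24 arrays of the series, and the iris, lens, retina, choroid and sclera for 15. The other 6 arrays, from 2 brain regions, entered no comparison. Members were chosen by the tissue label alone. The RNA came from mice in 3 lens groups, with 1 array per tissue and group. The methods describe right eyes of male C57BL/6J mice for the Control and Lens-induced groups and do not describe the 0D group. The Control group wore no lens. The Lens-induced group wore a -30 D lens for 3 weeks from an age of 3 weeks, and the 0D group wore a 0 D lens. Equal amounts of RNA from 3 mice were mixed for each Control and Lens-induced array, and for the 0D arrays the pooling is not given in the sources used here. The choroid sample was described in the methods as choroid with retinal pigment epithelium. The 3 cornea arrays were treated as near-replicates, as were those of each other tissue. Every p-value below rests on the spread between arrays of 1 tissue that differed in lens wear, combined over the 6 tissues. The arrays of 1 lens group were hybridized on 1 slide. Within the Control and the Lens-induced group the tissues came from the same 3 mice, and for the 0D group this is not given.

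The cornea is a transparent tissue made of a stratified surface epithelium, a collagen stroma with scattered keratocytes and an inner endothelium, and it holds sensory nerve endings but normally no blood vessels. A miRNA guides the silencing complex to messenger RNAs mainly through its seed, the stretch from base 2 to base 8. The miR-200 family and miR-205 are known to hold cells in an epithelial state by repressing Zeb factors, miR-203 promotes the differentiation of stratified epithelia by repressing p63, and miR-184 is known for its abundance in corneal and lens epithelium. The seed of miR-184 is altered by a human mutation linked to a corneal disease with cataract.

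The mature sequences of the miRNAs on which the cornea results rest are given in RefSeq (GRCm38.p6), with the seed in capitals. The first was the brightest of the miRNAs that were highest in the cornea, and the other 2 are markers of stratified epithelium.

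miR-184-3p: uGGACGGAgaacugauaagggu
miR-205-5p: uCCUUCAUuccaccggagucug
miR-203-3p: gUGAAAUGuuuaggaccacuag

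The next 5 form the miR-200 family and are shown for their shared seeds. The first 3 have 1 seed in common and the last 2 another.

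miR-200b-3p: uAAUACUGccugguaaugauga
miR-200c-3p: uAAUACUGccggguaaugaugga
miR-429-3p: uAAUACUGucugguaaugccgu
miR-141-3p: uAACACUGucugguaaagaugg
miR-200a-3p: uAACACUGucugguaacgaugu

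Most of these loci stand apart from protein-coding genes in the annotation. miR-184-3p lies at chr9:89802263-89802284 on the minus strand, and the annotation shows no gene spanning its hairpin. miR-205-5p lies at chr1:193507503-193507524 on the minus strand, within the long non-coding host gene Mir205hg. miR-203-3p lies at chr12:112130927-112130948 on the plus strand with no spanning gene. miR-429-3p, miR-200a-3p and miR-200b-3p follow each other on the minus strand of chromosome 4 with 973 and 752 bases between neighbors, and all 3 hairpins lie within the long non-coding gene Gm13648. miR-141-3p and miR-200c-3p lie 385 bases apart on the minus strand of chromosome 6.

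Signals are given below as scaled signals, which are background-subtracted fluorescence intensities summed over the probes of a miRNA and scaled so that the arrays had equal brightness at a fixed percentile of their shared miRNAs. A miRNA was detected where at least 1 of its probes exceeded 3 times its error. Of 1881 miRNAs on the array, 137, 149 and 172 were detected in the Control, 0D and Lens-induced cornea and 129 to 245 on the other ocular arrays. The 308 miRNAs detected on at least 3 of the 18 ocular arrays were tested with limma on the log2 scale, with undetected or dimmer values set to a common floor of 9.93. Arrays of a tissue set to the floor show no spread, which lowers the p-values of miRNAs with many such arrays. A miRNA was called at a Benjamini-Hochberg adjusted p under 0.05 and a log2 difference of at least 1. Where a whole tissue lacked detection, the ratio is bounded from below and written as "at least", with the limit of detection on each dim array in place of a value. The depth of a microarray is not a count of molecules, and the 3 arrays per tissue limit the precision.

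The cornea differed from the mean of the other 5 tissues in both directions. There were 34 miRNAs called higher in the cornea, 11.0% of those tested, and 38 called lower, 12.3%. All 72 calls had the same direction in each of the 3 lens groups when the cornea was compared with the other tissues of its own slide. A stricter description asked that the cornea lie above every other tissue of its slide by a log2 difference of at least 1 in all 3 lens groups. It was met by 12 miRNAs, 3.90% of those tested, namely miR-205-5p, miR-184-3p, miR-200b-3p, miR-200c-3p, miR-429-3p, miR-141-3p, miR-200a-3p, miR-148a-3p, miR-203-3p, miR-21a-5p, miR-15b-5p and miR-93-5p. The mirror description was met by miR-342-3p alone, 0.325% of those tested. These counts depended on how the arrays were brought to a common scale. With no scaling there were 15 higher and 88 lower calls, and with the 75th percentile over each array's own detected miRNAs 15 and 96. The number of lower calls also fell to 12 with normexp background correction. The first 2 settings moved the median difference of all miRNAs by -0.41 and -0.45 on the log2 scale. Called under all 5 scalings were 14 of the 34 higher miRNAs and 27 of the 38 lower ones, and the 14 comprise miR-184-3p, miR-205-5p, miR-203-3p, the 5 members of the miR-200 family, both arms of miR-31, miR-21a-5p, miR-148a-3p, miR-322-5p and miR-199b-5p. None of the 34 took a negative difference under any scaling, and miR-6366 came to 0 with quantile normalization.

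**Figure D1:**
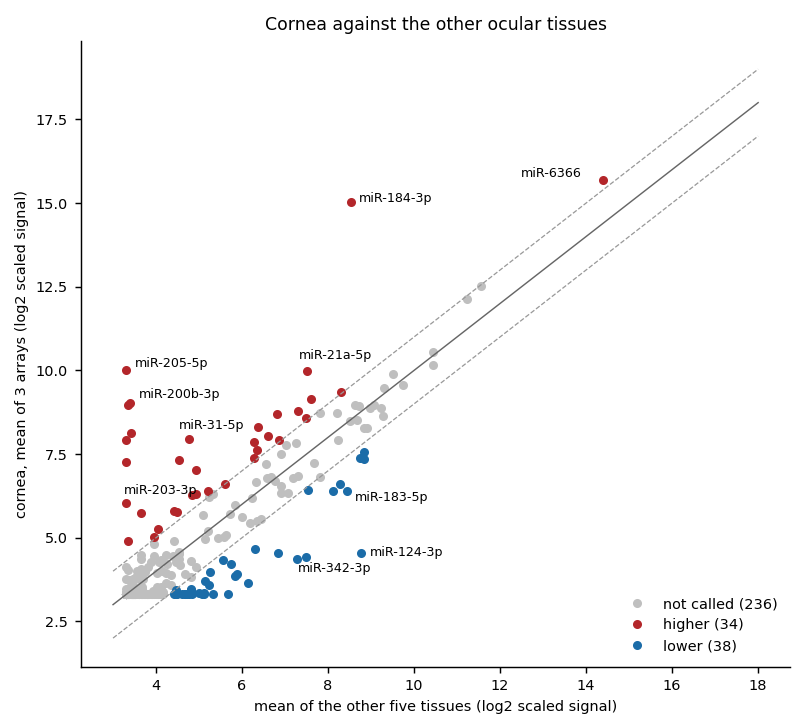
Mean log2 scaled signal of the 3 cornea arrays (vertical axis) against the mean of the 5 other tissue means (horizontal axis) for the 308 miRNAs tested, with 34 higher calls in red, 38 lower calls in blue and 236 miRNAs not called in gray; the solid line marks equality and the dashed lines a log2 difference of 1. miR-184-3p and miR-205-5p lie farthest above the line and miR-124-3p farthest below it.

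miR-184-3p gave scaled signals of 36854, 29710 and 34076 in the Control, 0D and Lens-induced cornea. It ranged from 11130 to 16390 in the lens, from 505 to 550 in the iris, from 99.7 to 147 in the choroid, from 111 to 275 in the sclera and from 32.6 to 70.5 in the retina. No array of another tissue reached the lowest cornea array, and the lens stood far above the 4 remaining tissues. The log2 difference between cornea and the mean of the other 5 tissues was 6.51 (SE 0.26, n = 3 arrays per tissue, limma adjusted p = 9.68e-11). Against the lens alone it was 1.22 (limma adjusted p = 0.00748), and against the retina 9.52. miR-184-3p made up 28.2%, 25.1% and 29.9% of the summed signal of the 3 cornea arrays. Its passenger arm, miR-184-5p, was detected on no cornea array.

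The epithelial miRNAs separated the cornea from the other tissues most sharply. A list of 13 surface epithelium miRNAs, namely miR-205-5p, miR-203-3p and both arms of miR-31 and of the miR-200 family without miR-429-5p, had 9 tested members. All 9 were called higher, of which miR-203-3p was tested only through its detection in the cornea, and the median log2 difference was 4.598 against -0.07 over all miRNAs tested. The summed signal of the list was 2838 to 3274 in the cornea, 66.1 to 82.8 in the iris, 363 to 396 in the lens, 22.1 to 24.6 in the choroid, at most 8.76 in the sclera and 0 in the retina. In the lens and the choroid miR-31 was the only member detected. Its members miR-205-5p, miR-203-3p and miR-200c-3p were detected on all 3 cornea arrays. The list was chosen with earlier results of these data known, so this is a description and cannot check the tissue label. In tissue pieces of this kind, fewer cells of a type and less RNA per cell cannot be told apart.

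miR-205-5p reached 1098, 1108 and 895 in the Control, 0D and Lens-induced cornea. It was found at 4.53, 8.06 and 4.92 in the iris and was not detected on any array of the lens, retina, choroid or sclera. The cornea was therefore at least 40.8-fold higher than the lens, 178-fold higher than the retina, 127-fold higher than the choroid and 111-fold higher than the sclera. In the fit every array of the other tissues stood at the floor and showed no spread, so no p-value is given. The lens arrays had been multiplied by the highest factors in scaling, a mean of 1.44 on the log2 scale, and their limit of detection was high.

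miR-203-3p was detected in the cornea alone, at 65.3, 71.1 and 62.1, and on none of the 15 other arrays. Its level was at least 12.1-fold above the iris, 11.4-fold above the retina, 8.12-fold above the choroid, 7.11-fold above the sclera and 2.61-fold above the lens. It passed the filter on detection through the cornea alone, so its call is a description and no p-value is given. Of the 308 miRNAs, 2 were detected on all cornea arrays and nowhere else in the eye, and the other was miR-503-5p.

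The miR-200 family rose as a whole. miR-200b-3p gave 523, 543 and 495 in the 3 cornea arrays, and miR-200c-3p gave 545, 455 and 506. In the iris the first lay between 11.5 and 14.9 and the second between 8.90 and 13.6. These 2 miRNAs differ at 2 of 22 compared bases, so their probes may share part of their signal. miR-429-3p gave 302, 276 and 266 in the cornea and 12.3 to 19.0 in the iris. The pair with the other seed was dimmer, with miR-141-3p at 260, 252 and 213 and miR-200a-3p at 150, 171 and 140 in the cornea. In the iris miR-141-3p lay between 4.83 and 5.47 and miR-200a-3p between 3.74 and 5.23. None of the 5 was detected in the lens, retina, choroid or sclera. Against the retina the lower bounds were 90.0-fold for miR-200b-3p, 86.6-fold for miR-200c-3p, 48.5-fold for miR-429-3p, 41.6-fold for miR-141-3p and 26.5-fold for miR-200a-3p. Against the iris, where all 5 were detected, the log2 difference was 5.29 for miR-200b-3p, 5.47 for miR-200c-3p and 4.28 for miR-429-3p. For miR-141-3p and miR-200a-3p every iris value lay under the floor, as it did for miR-205-5p.

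**Figure D2:**
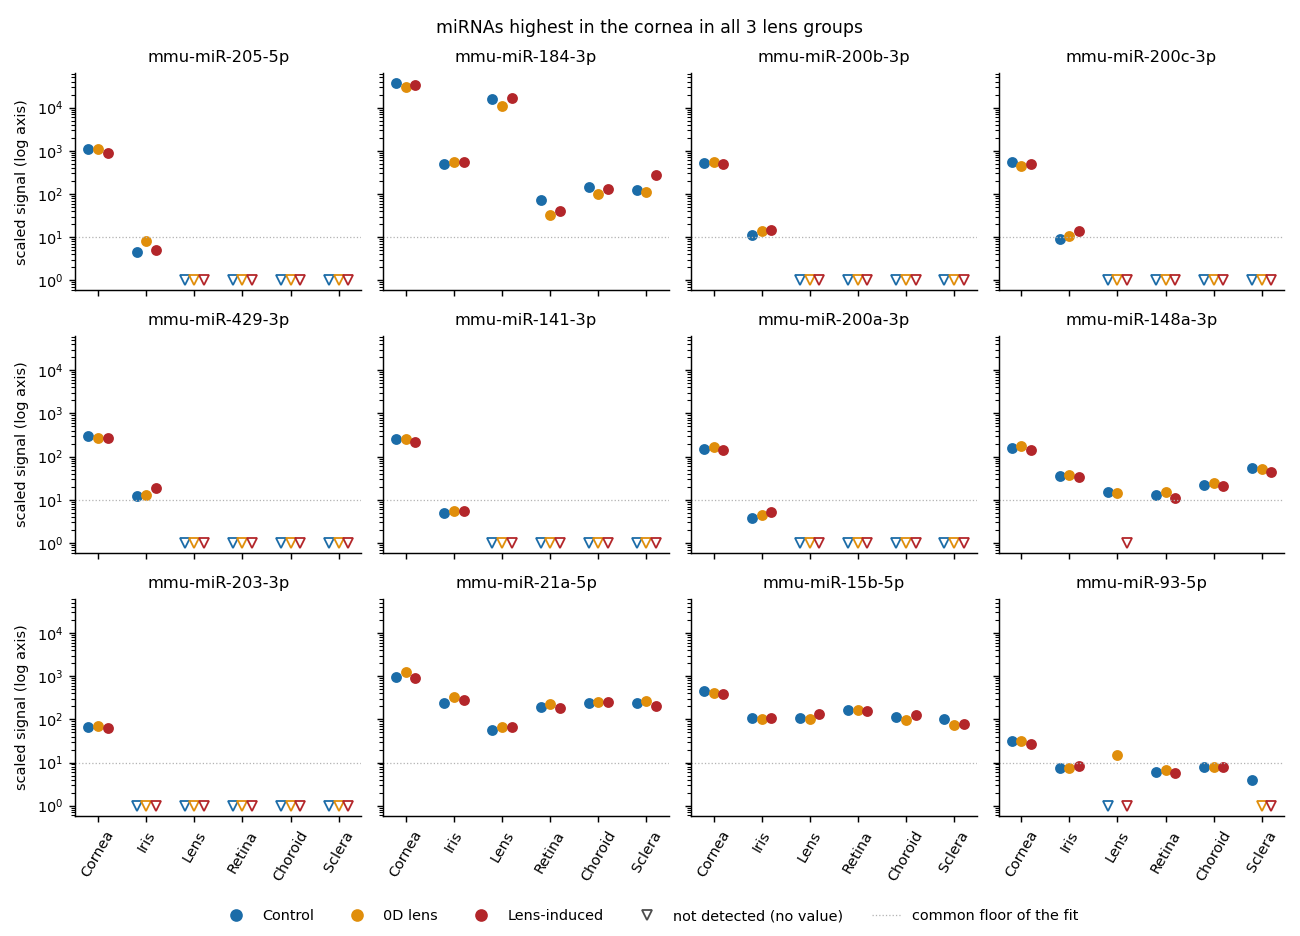
Scaled signal (logarithmic axis) on each of the 18 ocular arrays for the 12 miRNAs that were highest in the cornea in all 3 lens groups, colored by lens group; open triangles mark arrays without detection and have no value, and the dotted line is the floor of 9.93 used in the fit. In each panel the 3 cornea arrays lie above all other arrays, with the lens next for miR-184-3p and the iris the only other tissue with miR-205-5p and the miR-200 family.

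miR-31 was the exception among the epithelial miRNAs, since the lens carried it too. miR-31-5p, a regulator of proliferation in stratified epithelia, gave 273, 256 and 211 in the cornea and 370, 321 and 358 in the lens. It lay between 18.6 and 24.6 in the iris and choroid, reached at most 8.76 in the sclera and was not detected in the retina. The log2 difference between cornea and lens was -0.51 (limma adjusted p = 8.94e-05), and the cornea stood at least 42.3-fold above the retina. The other arm, miR-31-3p, was higher in the cornea than in the lens, at 58.1, 58.7 and 45.4 against 26.1, 42.1 and 26.5, with a log2 difference of 0.80 (limma adjusted p = 0.000307). The mean log2 scaling factors were 1.44 for the lens and 0.81 for the cornea, and their gap exceeded the difference of miR-31-5p, so its order between cornea and lens depends on the scaling.

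miR-21a-5p and miR-148a-3p were present in every tissue and highest in the cornea. miR-21a-5p, which is widely induced in growing and inflamed tissue, gave 931, 1268 and 888 in the cornea, and 57.8 to 331 on the 15 other arrays. Its log2 difference from the mean of the other tissues was 2.47 (SE 0.12, limma adjusted p = 6.62e-10). It was 3.9996 against the lens and 1.85 to 2.36 against the 4 other tissues. miR-146a-5p, which is induced by inflammatory signaling, was detected on no cornea array and was not called, with 12.9 to 16.0 in the choroid and at most 8.25 elsewhere. miR-148a-3p, a repressor of the DNA methyltransferase Dnmt1, gave 161, 176 and 145 in the cornea and at most 54.4 elsewhere, the highest values being those of the sclera. Its log2 difference was 2.80 (SE 0.12, limma adjusted p = 2.46e-10).

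Members of the miR-15/16 seed family, known as repressors of cyclins and of Bcl2, were also raised. Of 6 tested miRNAs that begin with this seed, 4 were called higher, against 11.0% of all miRNAs. These were miR-15b-5p (log2 difference 1.89), miR-322-5p (2.09), miR-15a-5p (1.05) and miR-16-5p (1.01), while miR-195a-5p and miR-497a-5p were not called. With no scaling the log2 differences of miR-15a-5p and miR-16-5p were 0.19 and 0.055, and with the percentile over detected miRNAs that of miR-15b-5p was 0.905, so that miR-322-5p alone kept its call under every scaling. miR-16-5p also lost its call without the Control or the 0D cornea array, and it was brighter in the retina, at 108 to 131 against 84.4 to 106. miR-15b-5p gave 457, 403 and 391 in the cornea and 74.5 to 168 on the 15 other arrays. miR-322-5p gave 136, 133 and 123 in the cornea, 53.3 to 76.6 in iris, choroid and sclera, and 5.15 to 5.57 in the retina, and it was not detected in the lens. Only 256 bases separate it on chromosome X from miR-503-5p, which was detected at 14.8, 14.5 and 11.5 in the cornea and on no other ocular array. Both lie within the long non-coding gene C430049B03Rik, and they carry different seeds.

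miR-322-5p: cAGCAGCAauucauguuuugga
miR-503-5p: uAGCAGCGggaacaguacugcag

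For miR-503-5p the lower bound was 2.51-fold against the iris, 2.35-fold against the retina, 1.66-fold against the choroid and 1.46-fold against the sclera. The cornea did not exceed the limit of detection of the lens arrays, so no bound is given there. It was not called, since its signal lay close to the floor and the fitted log2 difference of 0.45 was under the required size.

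The growth-linked miR-17/92 cluster and its paralogs had 9 tested members, of which 2 were called higher and none lower, against 11.0% of all miRNAs higher. miR-93-5p gave 30.8, 32.3 and 26.6 in the cornea and at most 14.96 on the other arrays. Its log2 difference was 1.55, and its call was lost with no scaling, at 0.993. Its cluster neighbors miR-25-3p and miR-106b-5p lay just below the required size, at log2 differences of 0.99 each. miR-20a-5p gave 207, 192 and 186 in the cornea, which was above all tissues but the lens with 436 to 532. miR-19b-3p and miR-92a-3p, from the same cluster as miR-20a-5p, showed log2 differences of 0.60 and 0.73 and were not called. Both also have a copy on chromosome X, which the array cannot tell apart. miR-18a-5p and miR-19a-3p were detected on no cornea array and gave 17.7 to 20.4 and 25.7 to 31.3 in the lens. Of the 6 tested members of the miR-23/27/24 clusters, 3 were called higher, against the same 11.0%. miR-27a-3p gave 559, 583 and 549 in the cornea against 309 to 385 in iris, choroid and sclera, 128 to 140 in the lens and 40.3 to 45.2 in the retina. miR-27b-3p and miR-23b-3p exceeded the lens and retina, but their log2 differences from the sclera were 0.02 and -0.12. Their calls and that of miR-20a-5p were lost with no scaling, where the log2 differences of miR-20a-5p, miR-27a-3p, miR-27b-3p and miR-23b-3p were 0.39, 0.69, 0.23 and 0.21. Also called higher were the hypoxia-induced miR-210-3p, which ranked second to the retina with 221 to 316 against 514 to 676, and miR-130a-3p, at 619 to 707 in the cornea against 150 to 563 elsewhere. Both calls were lost with no scaling, at log2 differences of 0.55 and 0.20, and that of miR-130a-3p also without the 0D cornea array.

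The lists of tissue and family miRNAs, several of which are described below, are read against 11.0% higher and 12.3% lower calls and a median log2 difference of -0.07 over all miRNAs tested. The median was 0.73 for the miR-17/92 group and 0.997 for the miR-23/27/24 group. It was -0.56 for neuronal, -1.23 for pigment cell, -0.87 for miR-125 and miR-99/100 and -0.37 for let-7 miRNAs. Of the smooth muscle miRNAs 1 of 2 tested was called lower, of the blood cell miRNAs 1 of 4, and of the endothelial miRNAs the 1 tested. Of the inflammation-linked miRNAs 1 of 2 tested was called higher, miR-21a-5p.

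**Figure D3:**
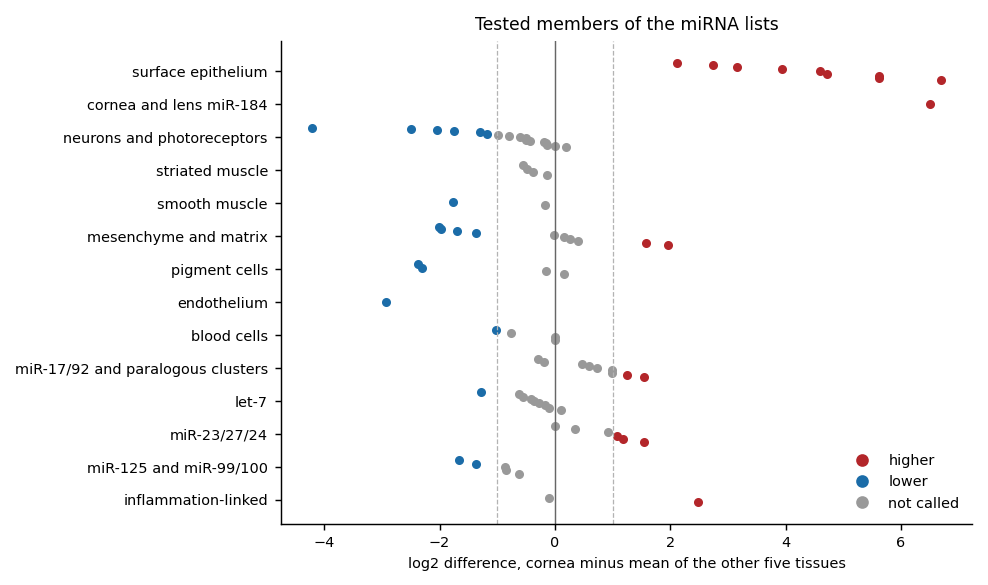
Log2 difference between cornea and the mean of the other 5 tissues (horizontal axis) for each tested member of the 14 miRNA lists (rows), in red where called higher, in blue where called lower and in gray where not called, with dashed lines at a log2 difference of 1 in either direction. All 9 surface epithelium miRNAs lie to the right, and the called neuronal, pigment, endothelial and smooth muscle miRNAs lie to the left.

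The brightest corneal miRNA was miR-6366, a little studied miRNA, with 59310, 52904 and 46546. It made up 45.4%, 44.7% and 40.8% of the summed signal. The lens was brighter still, at 142056 to 154894, and the other tissues lay between 7582 and 20614. The log2 difference from the mean of the other tissues was 1.30 (limma adjusted p = 1.02e-05), but 0.44 with no scaling. miR-3968, miR-6368, miR-3963 and miR-5100 had the same order, with the lens first and the cornea second. The first 2 were called, and miR-3963, at 5116 to 6841 in the cornea and 19008 to 21331 in the lens, and miR-5100 were not. The other bright corneal miRNAs were let-7b-5p at 1415 to 1616 and let-7c-5p at 1099 to 1172, neither of which was called. The sign for let-7b-5p turned with the scaling, from 0.10 to -0.76 with none.

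A group of 5 higher calls outside the naming rule, picked out for its values, was brightest on the Lens-induced cornea array, and 3 of the 5 calls rested on it. These were miR-466h-3p, miR-466i-3p, miR-466q, miR-467f and miR-669p-3p, from a large family of near-identical copies whose probes may share signal. miR-466h-3p gave 57.0 and 55.5 in the Control and 0D cornea but 153 in the Lens-induced cornea, and miR-466i-3p gave 20.3, 22.3 and 74.7. The sclera had similar values, 49.1 to 88.0 for miR-466h-3p. None of the 5 was called between cornea and sclera. Without the Lens-induced cornea array, 31 of the 34 higher calls remained, and the 3 lost were miR-466h-3p, miR-466i-3p and miR-466q. miR-467f and miR-669p-3p kept their calls, at log2 differences of 1.11 and 1.13.

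miR-124-3p of neurons showed the largest deficit of the cornea among the called miRNAs, while most neuronal and photoreceptor miRNAs were not called. Of 20 such miRNAs on the array, 18 were tested, 6 were called lower and none higher, against 12.3% of all miRNAs lower. Of the 20, 12 were detected on no cornea array, so a missing call does not mean that the cornea carried the miRNA. miR-9-5p, for example, was not detected in the cornea and gave 51.6 to 67.0 in the retina. With the floor in most tissues its fitted log2 difference was -0.51. The brain-enriched miR-124-3p gave 20.2, 26.2 and 24.3 in the cornea and 10202 to 11409 in the retina. It ranged from 570 to 985 in the choroid, from 321 to 587 in the sclera, from 105 to 390 in the lens and from 11.6 to 33.4 in the iris. The cornea was thus as low as the iris, with a log2 difference of 0.17 between them (limma adjusted p = 1). Against the mean of the other 5 tissues the difference was -4.21 (SE 0.36, limma adjusted p = 2.49e-07). Among the cornea arrays miR-9-3p was detected on the Lens-induced one alone, at 19.9, and it gave 746 to 868 in the retina. The choroid gave 153 to 191 and the sclera 102 to 112. The iris, at 5.13 to 19.2, was about as low as the cornea, and the lens had no detection. miR-129-5p and miR-129-2-3p were not detected in the cornea, which stood at least 17.3-fold and 20.7-fold below the retina. The lens had no detection of either arm, and every iris and sclera value lay under the floor of 9.93. Cornea, lens, iris and sclera therefore stood at the same level in the fit for both arms. The choroid gave 15.4 to 22.7 and 17.3 to 24.8. Both calls were lost with quantile normalization, at log2 differences of -0.89 and -0.96. The summed signal of the list was 284 to 298 in the cornea, 95.8 to 161 in the iris, 394 to 962 in the lens, 1663 to 2761 in the choroid, 955 to 1865 in the sclera and 26535 to 29674 in the retina. Within the lens, choroid and sclera miR-124-3p and miR-183-5p differed between lens groups by more than in the cornea, and a part of retinal RNA in those values was not tested.

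The sensory cluster miR-183/96/182, which is known from photoreceptors, hair cells and sensory neurons, was nevertheless measurable in the cornea. miR-183-5p gave 88.1, 76.1 and 88.0 in the cornea, far below the 8510 to 9710 of the retina but above the 10.6 to 19.3 of the iris. It was called lower against the mean of the other tissues (log2 difference -2.04, SE 0.33, limma adjusted p = 0.000125) and higher against the iris (2.57, limma adjusted p = 0.000178). miR-182-5p gave 38.4, 30.9 and 26.1 in the cornea and was not detected in the iris or the lens, which put the cornea at least 5.80-fold above the iris and 1.23-fold above the lens. miR-96-5p gave 118, 124 and 100 in the cornea and 9.92 to 13.4 in the iris. Neither miR-182-5p nor miR-96-5p was called against the mean of the other tissues.

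Vascular and smooth muscle miRNAs were not detected in the Control and 0D cornea, and the Lens-induced cornea differed in miR-126a-3p. miR-126a-3p, an endothelial miRNA encoded within Egfl7, was not detected in the Control and 0D cornea and gave 86.5 in the Lens-induced cornea. It gave 1030 to 1203 in the choroid, 329 to 350 in the iris, 242 to 393 in the sclera and 67.5 to 75.1 in the retina, and it was not detected in the lens. Its log2 difference was -2.92 (SE 0.47, limma adjusted p = 0.000101), with -4.02, -4.01 and -0.75 within the Control, 0D and Lens-induced slides. Without the Lens-induced cornea array it was -3.97. miR-143-3p, a smooth muscle miRNA, was detected on no cornea array and gave 304 to 310 in the iris, which put the cornea at least 15.7-fold below the iris (limma adjusted p = 4.37e-09 against all 5). The lens and retina had no detection of miR-143-3p either, so cornea, lens and retina all stood at the floor in the fit. The erythrocyte miRNA miR-451a was not detected in the Control cornea and gave 11.98 and 10.83 in the others, against 25.4 to 59.4 in iris, choroid and sclera. The retina, at 10.97 to 13.29, was as low as the cornea, and the lens had no detection. The neutrophil miRNA miR-223-3p had the same pattern, with 25.5 and 13.3 in the 0D and Lens-induced cornea, and was not called. The direction for miR-451a turned with normexp background correction, to 0.23. Among 7 striated muscle miRNAs, 4 were tested and none was called.

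Among the 4 pigment cell miRNAs tested, both arms of miR-211 were called lower and both arms of miR-204 were not called. miR-211-5p, encoded within the melanocyte gene Trpm1, gave 23.67, 12.04 and 43.30 in the cornea, 772 to 906 in the iris and 21.2 to 28.2 in the lens. Its log2 difference was -2.31 (SE 0.28, limma adjusted p = 9.01e-06), and the cornea values were spread over a 3.60-fold range between the lowest and the highest. The other arm, miR-211-3p, had another order of tissues, with 326 to 432 in the lens and 49.0 to 77.1 in the iris. It gave 26.3 to 28.7 in the choroid, 25.2 to 45.4 in the sclera and 14.1 to 18.2 in the retina. In the cornea it was detected on the Lens-induced array alone, at 8.51. miR-204-5p has the same seed as miR-211-5p and differs from it at 1 of 22 bases, so the probes of the pair may share signal.

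miR-204-5p: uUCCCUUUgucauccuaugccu
miR-211-5p: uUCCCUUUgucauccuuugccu

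miR-204-5p gave 662, 749 and 707 in the cornea, which was above the 288 to 304 of the iris and below the 1198 to 1349 of the lens. It was not called, with a log2 difference of 0.15 (limma adjusted p = 0.129).

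The miRNAs of mesenchyme and matrix split as well. Of 10 tested, 2 were called higher and 4 lower, and the median log2 difference was 0.07. miR-199b-5p and miR-199a-3p, abundant in fibroblasts, gave 308 to 339 and 220 to 249 in the cornea. The first gave 950 to 1052 in the sclera, 267 to 283 in the choroid, 134 to 149 in the iris, at most 5.09 in the retina and nothing in the lens. Both were called higher against the mean of the other tissues, in which lens and retina were low. Against the sclera alone their log2 differences were -1.63 and -1.94. With no scaling miR-199b-5p kept its call, at 1.23, and miR-199a-3p lost it, at 0.83. miR-214-3p lies 5533 bases from miR-199a-3p on chromosome 1 and was called lower against the mean of the other tissues. miR-199a-3p has another copy of the same sequence on chromosome 9, which the array cannot tell apart. miR-214-3p is described next. It was not detected in the Control cornea and gave 10.9 and 12.1 in the others, close to the floor. The sclera gave 153 to 203 and the choroid 74.6 to 98.3. The iris, at 11.8 to 13.4, was about as low as the cornea, and lens and retina had no detection. miR-199a-3p was also lower in the cornea than in the sclera, at 832 to 929, and the choroid, at 349 to 367. Its other arm, miR-199a-5p, was not called (-0.02), with 20.3 to 23.5 in the cornea and 104 to 133 in the sclera. The opposite calls of miR-199a-3p and miR-214-3p thus hold for the mean of the other tissues and not against sclera or choroid. The cartilage miRNA miR-140-5p gave 13.4, 14.3 and 15.5 in the cornea, the sclera giving 183 to 229. Its log2 difference was -1.98 (SE 0.13, limma adjusted p = 2.05e-08). The lens, at 16.3 and 16.9 on the 2 arrays with detection, was about as low as the cornea. With the gene total printed by the scanner software, miR-140-5p and its other arm miR-140-3p, also called lower, took the opposite direction. The direction of miR-214-3p turned with normexp background correction.

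Within the miR-29 family, which represses collagens, 1 of 3 tested members was called lower, against 12.3% of all miRNAs. miR-29a-3p and miR-29c-3p differ at 1 of 22 bases.

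miR-29a-3p: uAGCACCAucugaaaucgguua
miR-29c-3p: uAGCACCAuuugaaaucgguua

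miR-29a-3p gave 1061, 913 and 901 in the cornea, which overlapped the range of the iris, choroid and sclera, 977 to 1278. miR-29c-3p gave 86.3, 89.6 and 78.9 in the cornea, 154 to 285 in those 3 tissues and 1073 to 1391 in the retina. The log2 difference of miR-29c-3p was -1.70 (SE 0.12, limma adjusted p = 2.21e-08), and that of miR-29a-3p was 0.39 and not called. Cross-hybridization between the pair would leave their levels uncertain.

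miR-342-3p, encoded within Evl, was the 1 miRNA that lay below every other tissue by the required size in each lens group. With the printed gene total and with normexp no miRNA did so, and its log2 difference from the mean of the other tissues was -1.07 and -1.46. It gave 16.9, 16.1 and 36.7 in the Control, 0D and Lens-induced cornea and 105 to 407 on the 15 other arrays. Its log2 difference was -3.06 (SE 0.19, limma adjusted p = 8.75e-09), and within the 3 slides it was -3.40, -3.49 and -2.28. The groups did not overlap, although the Lens-induced cornea held about 2.27 times the level of the lowest cornea array.

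**Figure D4:**
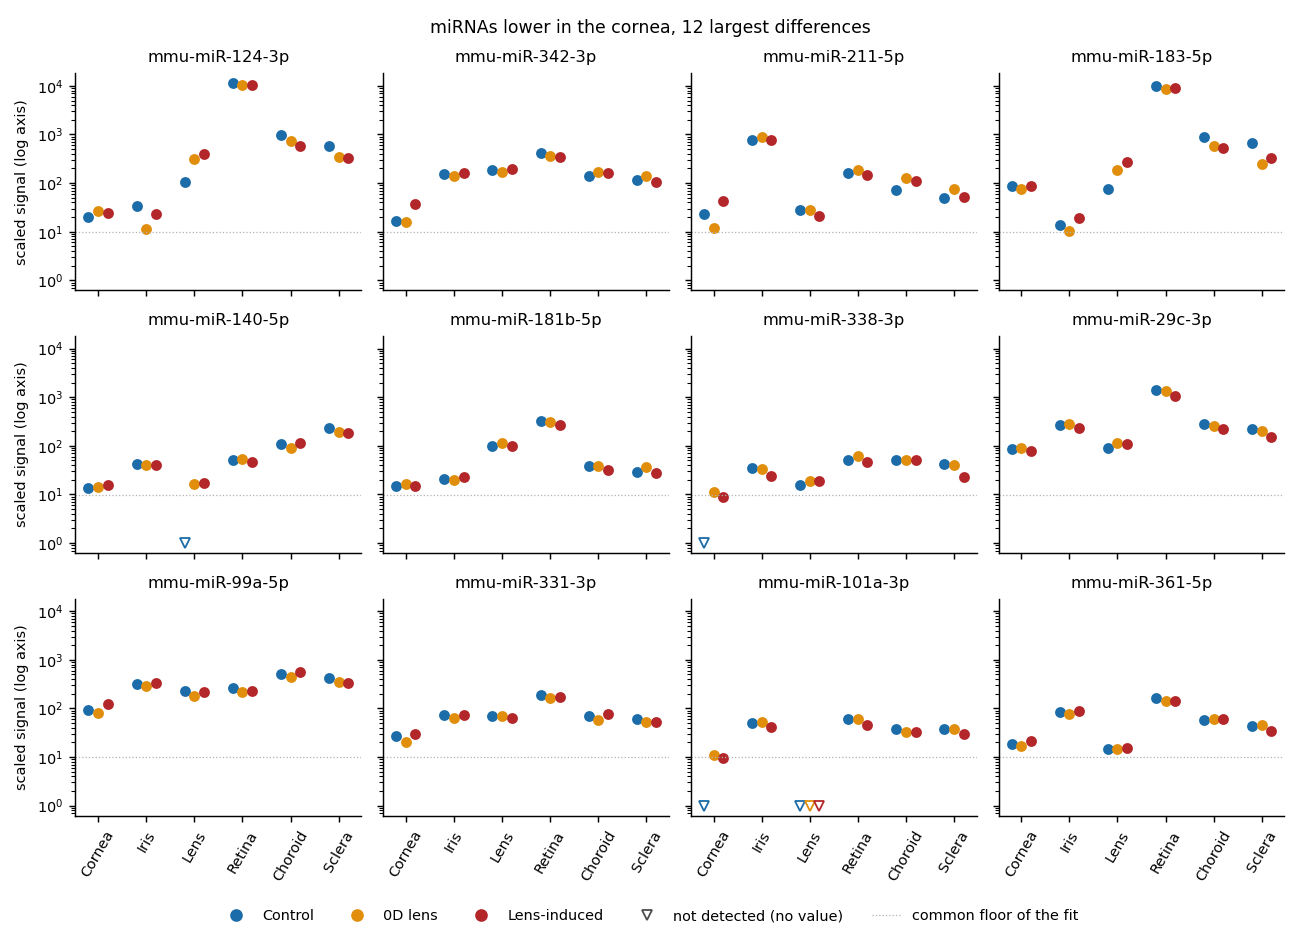
Scaled signal (logarithmic axis) on each of the 18 ocular arrays for the 12 lower calls with the largest differences that were detected on at least 2 cornea arrays, colored by lens group; open triangles mark arrays without detection and have no value, and the dotted line is the floor of 9.93. The cornea arrays of miR-342-3p, at 16.1 to 36.7, lie well below all 15 others, whereas for miR-124-3p and miR-183-5p the retina stands far above and the iris is as low as the cornea or lower.

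Deficits of moderate size were found in some members of clusters, often beside neighbors that were not called. let-7e-5p, at 178 to 208 in the cornea and 260 to 884 elsewhere, was the 1 member of 9 in the let-7 family called lower (log2 difference -1.28, limma adjusted p = 6.12e-08). It lies 150 bases from miR-99b-5p on chromosome 17, which was called lower too (-1.36) and was detected on the Lens-induced cornea array alone, and 429 bases from miR-125a-5p, which was not (-0.87). miR-99a-5p gave 93.6, 79.7 and 126 in the cornea and 181 to 559 elsewhere, with a log2 difference of -1.67. On chromosome 16 it lies 710 bases from let-7c-5p, which was not called (-0.27) and has another copy on chromosome 15. Of the 5 members of the miR-125 and miR-99/100 families, 2 were called lower and none higher. Of 4 tested miRNAs with the miR-181 seed, 3 were called lower, against 12.3% of all miRNAs. Among the 3, miR-181c-5p lost its call with quantile normalization, at -0.80. The 1 not called, miR-181d-5p (-0.10), lies 142 bases from miR-181c-5p. miR-181b-5p gave 14.9, 16.1 and 14.7 in the cornea, 273 to 328 in the retina, 99.2 to 116 in the lens and 20.0 to 39.2 in the remaining tissues. The other calls named by rule were miR-338-3p, miR-331-3p, miR-101a-3p and miR-361-5p, with log2 differences from -1.75 to -1.52. With the gene total printed by the scanner software in place of the sum over detected probes, these 4, miR-140-5p and miR-181b-5p took the opposite direction. One seed was shared by calls in both directions, that of miR-130a-3p (1.06) and miR-301a-3p (-1.63).

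Of the miRNAs tested, 131 were detected on no cornea array, and 19 of these were detected on at least 12 of the 15 other arrays. A ratio bounded above 1 could be given for 15. Apart from the miR-129 arms, the largest belonged to miR-6538 and miR-7118-5p, at least 8.60-fold and 6.47-fold below the lens, and to miR-181c-5p, at least 4.31-fold below the retina.

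The distance of the cornea from each tissue was set out in 5 pairwise comparisons that share the cornea arrays. Against the choroid 69 miRNAs were called, 22.4% of those tested, with 27 higher (8.77%) and 42 lower (13.6%) in the cornea. Against the sclera there were 82 calls (26.6%), of which 31 (10.1%) were higher and 51 (16.6%) lower. Against the iris there were 87 (28.2%), with 45 (14.6%) higher and 42 (13.6%) lower. The lens differed in 97 (31.5%), with 43 higher and 54 (17.5%) lower. The retina differed in 116 (37.7%), with 51 (16.6%) higher and 65 (21.1%) lower. This order did not hold with normexp background correction, which gave 201 calls against the iris, 182 against the retina, 103 against the choroid, 60 against the lens and 40 against the sclera. The correlation of mean log2 signals with the cornea over the 308 miRNAs followed a similar order, with Pearson r of 0.80 for the choroid, 0.79 for the iris, 0.78 for the sclera, 0.73 for the lens and 0.63 for the retina. These are descriptions over miRNAs measured on the same arrays. Among the 34 higher calls, the cornea had the highest mean of the 6 tissues in 23, the lens in 6, the sclera in 3 and the retina in 2. Among the 38 lower calls, the retina was highest in 17 and the lens in 10.

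**Figure D5:**
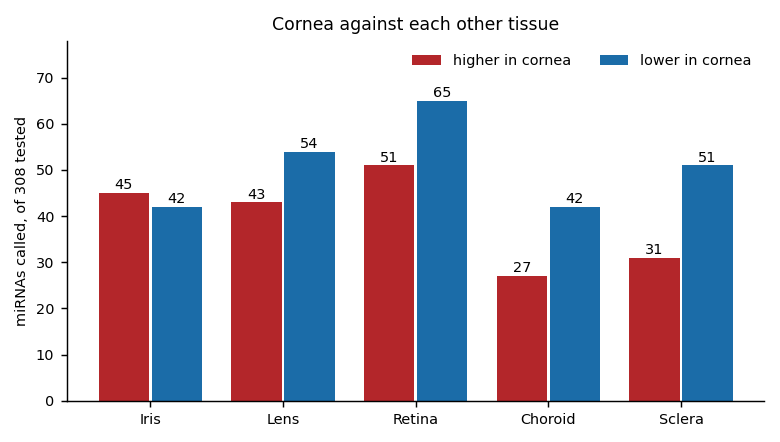
Number of miRNAs called higher (red) and lower (blue) in the cornea than in each other ocular tissue, of 308 tested. At this setting the retina differed in the most miRNAs, 51 and 65, and the choroid in the fewest, 27 and 42, an order that changed with normexp background correction.

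The 3 cornea arrays resembled each other closely. The median SD of the log2 signal was 0.15 over the 129 miRNAs detected on all 3, and 14 of these had an SD above 0.5. Pairs of cornea arrays correlated at Pearson r of 0.97 to 0.99 over the same miRNAs. The Lens-induced cornea stood apart by its detections, with 25 miRNAs found there alone, compared with 7 in the Control and 3 in the 0D cornea. Lens wear, slide and pool cannot be told apart for such differences.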

How the data were processed

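MicroRNA was measured on one-color Agilent 8x60K mouse arrays, and the authors deposited scanner files made with Agilent Feature Extraction 10.7.1.1, in which each probe has a background-subtracted total signal intensity and its error. For each of 1881 miRNAs the intensities of the unique probes exceeding 3 times their error were summed. Each array was scaled to an equal 75th percentile over the 79 miRNAs seen on every array of the series, with log2 factors from -1.01 to 1.65. Values under a common floor of 9.93 were raised to it, and log2 values of 308 miRNAs were fitted with limma 3.58.1 (R 4.3.3) with 1 mean per tissue, Benjamini-Hochberg adjustment and eBayes. The script was tested on simulated data. A second deposited table with 24 columns of values was not used, since its column names could not be tied to single samples.

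The miRNAs named were the 12 largest called differences in each direction among those detected on at least 2 cornea arrays and 3 of the 15 others, the 5 largest bounds in each direction, the 8 brightest in the cornea and the members of 14 lists. Further names were chosen after their values were seen. The members and lists were chosen with earlier results of these data known. Scaling, floor, detection filter, background correction, slide as a block and left-out arrays were varied. Arrays of 1 slide share a lens group. Same-slide deviations of the cornea and the other tissues correlated at a mean r of 0.20, 0.24 and 0.31 for the Control, 0D and Lens-induced slides. Sequences, hairpins and host genes came from RefSeq tables (GRCm38.p6). Python 3.11.15 with numpy 2.4.6, pandas 2.3.3 and matplotlib 3.10.9 was used.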

Additional observations from a re-analysis of the deposited data

How the results depend on the processing

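The 34 higher and 38 lower calls were unchanged in number with the slide as a replicate block (34 and 38). Leaving out 1 cornea array or 1 slide in turn gave 33 to 35 higher and 35 to 42 lower calls, 12 miRNAs highest in the cornea each time and 1 to 3 lowest, with 3 lowest when the Lens-induced cornea array or slide was left out. With the 75th percentile over each array's detected miRNAs there were 15 higher, 96 lower, 7 highest and 5 lowest, 137 calls against the choroid and 154 against the sclera. That percentile was taken over detected miRNAs because over all miRNAs it falls among undetected ones. With no scaling there were 15 higher, 88 lower, 4 lowest and 127 calls against the choroid, and with the miRNAs detected on all 18 ocular arrays as the set for scaling 2 lowest. With an undetected miRNA at 0.1 there were 137 lower and 4 lowest, and 148, 195, 121 and 147 calls against iris, retina, choroid and sclera. With it at its array's lowest detected signal there were 58 higher and 204, 222, 158 and 164 calls against the same tissues. Requiring detection on 9 arrays left 5 highest. The printed gene total gave 0 lowest. With normexp, run on median spot signals of all probes without a floor, there were 12 lower, 0 lowest, and 201, 60, 182 and 40 calls against iris, lens, retina and sclera. Without a minimum size there were 56 higher and 116 lower, and the fold rule of the methods gave 4 lowest.

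Among the single miRNAs, 795 values kept their direction and side of the threshold, 55 lost the call, 9 gained it and 16 changed sign. With the percentile over detected miRNAs the log2 difference was -0.011 for miR-3963, -0.071 for miR-5100 and -0.88 for let-7b-5p, which was -0.76 with no scaling and -0.081 with quantile normalization. With the printed total it was 3.08 for miR-140-5p, 0.25 for miR-140-3p, 1.16 for miR-181b-5p, 0.35 for miR-338-3p, 0.44 for miR-331-3p, 1.25 for miR-101a-3p, 1.098 for miR-361-5p and 2.10 for miR-451a. With normexp it was 0.25 for miR-7118-5p, 0.028 for miR-214-3p and 0.23 for miR-451a. The cause was not tested. Of the 308 miRNAs, 131 were detected on no cornea array, and for these signal over background allows only a bound.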

Other observations

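The 6 arrays of the 2 brain regions entered no comparison and give a further view of the 12 miRNAs that were highest in the cornea. Of these, 7 were detected on none of the 6 brain arrays, namely miR-205-5p, miR-203-3p, miR-200a-3p, miR-200b-3p, miR-200c-3p, miR-141-3p and miR-429-3p. miR-184-3p was detected on 2 of the 6, at 4.19 and 12.3, compared with 29710 to 36854 in the cornea. miR-148a-3p was detected on 4, at 4.33 to 26.97. miR-15b-5p at 49.2 to 132, miR-21a-5p at 136 to 319 and miR-93-5p at 8.79 to 12.3 were detected on all 6, and every brain value lay below the lowest cornea value of the same miRNA.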
